A study of Homo sapiens with 6 samples.

Results

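Positions 3791 to 3990 of human 28S rRNA, labelled as the end part of domain IV, were taken from the deposited 28S tables by their position numbers alone. They make up 200 of the 5070 positions of 28S rRNA and 200 of the 6939 positions of 18S and 28S rRNA together, and all 200 had at least 100 crossing reads in all 6 libraries. The window holds 8 positions listed as pseudouridine (Ψ), which are Ψ3818, Ψ3822, Ψ3844, Ψ3851, Ψ3853, Ψ3884, Ψ3920 and Ψ3959. The tables do not mark domain borders, so the domain name was not checked, and they hold rRNA only, so the cell line was not checked. The list was checked against the reference bases, and 8 of 8 pseudouridines lay on a U. A further 12 of 12 positions listed as ribose-methylated lay on the stated base, and Ψ3818 is on both lists. Positions are those of the deposited rRNA sequence, counted from 1, and no genome build applies.

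The study asked how often reverse transcriptases misread pseudouridines or stop at them after CMC treatment, and in which sequence contexts. RNA longer than 200 nt from HEK293T/17 cells, a human embryonic kidney line, was fragmented and either treated with CMC or mock-treated. Each preparation was copied by HIV reverse transcriptase with magnesium (HIV RT), by SuperScript III with manganese (SSIII-Mn) or by SuperScript III with magnesium (SSIII-Mg). SuperScript III is an engineered retroviral reverse transcriptase. The 6 groups are therefore CMC and mock libraries of HIV RT, CMC and mock libraries of SSIII-Mn, and CMC and mock libraries of SSIII-Mg. Each group holds 1 library, so every difference below compares libraries and has no replicate check.

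Pseudouridine is an isomer of uridine in which the base is joined to the ribose through carbon, and in human rRNA it is placed by box H/ACA snoRNAs that pair with the target. CMC, a carbodiimide, reacts with U and G and with pseudouridine, and its adduct on pseudouridine survives alkaline treatment that removes the others. An alkaline step is not described in the labels. Domain IV of the large subunit forms much of the surface that faces the small subunit and is rich in modified nucleotides. Human rDNA is present in many near-identical copies, and reads from different copies were not separated.

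The sequence of the window is shown because the results below turn on where each pseudouridine lies and what stands next to it. It is written 5′ to 3′ with U as T, as the tables give it, and the capitals mark the 8 pseudouridines:
window 3791 to 3990: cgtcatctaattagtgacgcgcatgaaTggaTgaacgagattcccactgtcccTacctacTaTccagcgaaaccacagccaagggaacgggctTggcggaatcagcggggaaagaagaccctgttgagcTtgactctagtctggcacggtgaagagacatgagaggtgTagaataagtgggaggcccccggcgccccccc

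The 15 nt around each site are given so that neighbours can be compared. In each line the capital is the pseudouridine named:
Ψ3818: gcatgaaTggatgaa
Ψ3822: gaatggaTgaacgag
Ψ3844: ctgtcccTacctact
Ψ3851: tacctacTatccagc
Ψ3853: cctactaTccagcga
Ψ3884: acgggctTggcggaa
Ψ3920: gttgagcTtgactct
Ψ3959: agaggtgTagaataa
Ψ3818, Ψ3822 and Ψ3884 stand before a G. Ψ3844, Ψ3851 and Ψ3959 stand before an A, Ψ3853 before a C and Ψ3920 before a U. Ψ3844 and Ψ3851 share both flanking bases, a C on the 5′ side and an A on the 3′ side. The window was richer in A than the 2 rRNAs together, with 26.5% A against 17.5%, and its share of U was 17.5% against 16.6%. It holds 27 U outside the list.

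Crossing reads are reads that cover a position, and the mutation share is the percentage of them with a base other than the reference. The stop share is the percentage of arriving cDNAs that ended at a position, computed as stops over stops plus crossing reads, with each stop at the position the deposited tables give it. The change is the CMC share minus the mock share, in percentage points. A position was called when the adjusted value of a two-sided Fisher's exact test on the read counts of both libraries was under 0.05 and the change was at least 5 points. "Rose" and "fell" are used below of called positions only. Intervals are 95% intervals for counting error only, since no molecular identifiers are described and reads amplified by PCR are not independent molecules.

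Summed over both rRNAs, the libraries held between 21206954 and 47002169 stops. Crossing reads per position of the window had medians of 65693.5 in the HIV RT CMC library and 283762 in its mock library. The medians were 70184.5 in the CMC and 269024 in the mock library of SSIII-Mn, and 61450 in the CMC and 197174 in the mock library of SSIII-Mg. The fewest at any position was 9874, in the SSIII-Mg mock library. At the listed pseudouridines of the window, the widest interval of any share reached 0.292 points to each side for mutation and 0.481 points for stops. These maxima leave out the other positions, some of which had fewer crossing reads. The size bar, not counting error, therefore set nearly all calls at the pseudouridines.

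At the bar of 5 points, only pseudouridines of the window were called for misreading after CMC. In the HIV RT comparison 4 of 8 pseudouridines rose in mutation share (Ψ3822, Ψ3884, Ψ3851 and Ψ3959), and in the SSIII-Mn comparison 4 of 8 rose (Ψ3851, Ψ3822, Ψ3853 and Ψ3818). None was called in the SSIII-Mg comparison, where all 8 changes were positive but at most 1.39 points. No unlisted position of the window was called for mutation in any of the 3 comparisons, and none of the 200 fell. With a lower bar of 2 points unlisted positions were called too. There 11 positions rose with HIV RT, 6 of them pseudouridines, and 17 with SSIII-Mn, 7 of them pseudouridines. Over all positions tested, 1.05% rose and 0.101% fell with HIV RT, 1.29% rose and 0.332% fell with SSIII-Mn, and 0.159% rose and 0.0868% fell with SSIII-Mg.

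The share of called pseudouridines lay close to that of the other 94 listed pseudouridines of both rRNAs. Of those, 42.6% rose in mutation share with HIV RT, 37.2% with SSIII-Mn and 3.19% with SSIII-Mg. Among U outside the list in both rRNAs, 2.19%, 2.76% and 0.286% rose in those 3 comparisons, against 0 of the 27 in the window in each.

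**Figure D1:**
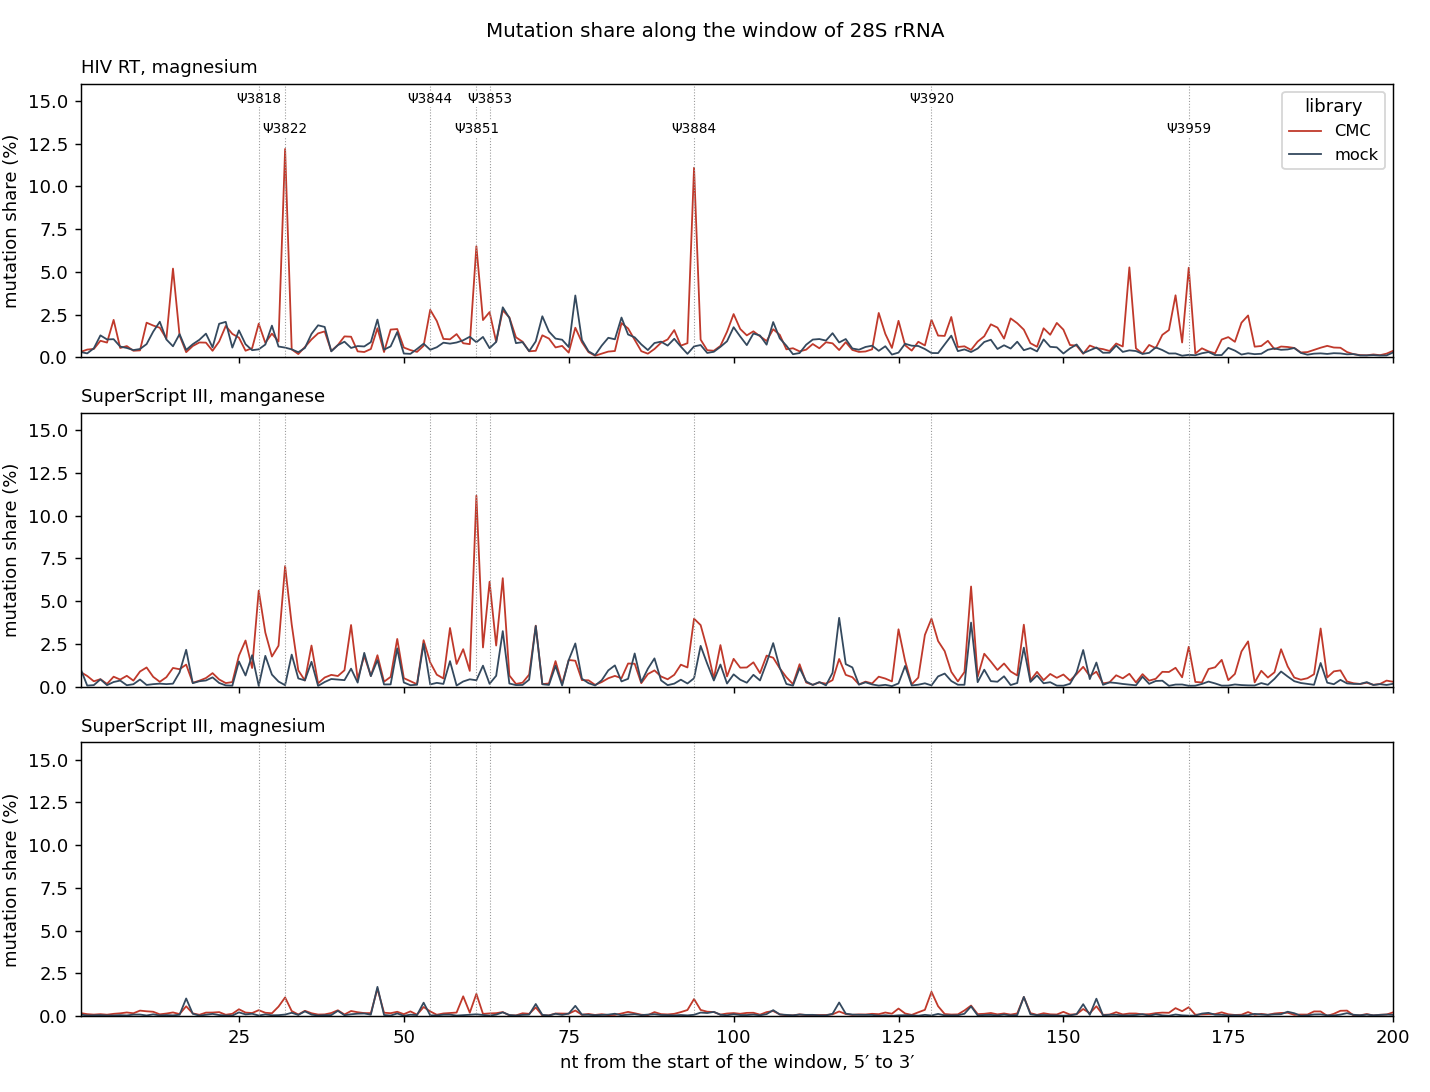
Mutation share (percent of crossing reads with a base other than the reference) along the 200 nt of the window, counted from its 5′ end, in the CMC library (red) and the mock library (dark) of each reverse transcription condition; dotted lines mark the 8 pseudouridines. The tallest CMC peaks stand at Ψ3822 and Ψ3884 with HIV RT and at Ψ3851 with SuperScript III and manganese, while no CMC peak exceeds 1.43% at a pseudouridine with SuperScript III and magnesium.

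Stops were more widespread. In the HIV RT comparison 22 of 200 positions rose in stop share and 9 fell, in the SSIII-Mn comparison 21 rose and 1 fell, and in the SSIII-Mg comparison 16 rose and 1 fell. Over all positions tested, 10.1% rose and 3.66% fell with HIV RT, 8.38% rose and 1.98% fell with SSIII-Mn, and 9.22% rose and 1.84% fell with SSIII-Mg, so the window as a whole lay near the background.

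Among the pseudouridines, 6 of 8 rose in stop share with HIV RT, 4 of 8 with SSIII-Mn and 8 of 8 with SSIII-Mg. Of the other 94 listed pseudouridines, 84% rose with HIV RT, 63.8% with SSIII-Mn and 89.4% with SSIII-Mg. The unlisted U of the window rose in 8, 5 and 6 of 27 cases in these 3 comparisons, where 33.1%, 22.7% and 39.3% of unlisted U in both rRNAs rose. Ψ3844, Ψ3851, Ψ3853 and Ψ3959 rose in all 3 comparisons.

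Counting either measure, 8 of 8 pseudouridines were called with HIV RT, 6 of 8 with SSIII-Mn and 8 of 8 with SSIII-Mg. The same count was not made for the other 94 listed pseudouridines, of which 84%, 63.8% and 89.4% rose in stop share. It therefore does not set the window apart from them. With SSIII-Mn, Ψ3884 and Ψ3920 passed for neither measure. The median mutation change over the 8 sites was 3.71 points with HIV RT, 4.73 points with SSIII-Mn and 0.706 points with SSIII-Mg, beside 4.22, 3.91 and 0.491 points over the other listed pseudouridines. For stops the median was 11.3 points with HIV RT, 5.63 points with SSIII-Mn and 13.5 points with SSIII-Mg, beside 14.5, 7.74 and 18.6 points over the others. The unlisted U of the window had median mutation changes of 0.908, 0.689 and 0.143 points and median stop changes of 2.56, 1.46 and 3.03 points in the same order of conditions.

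**Figure D2:**
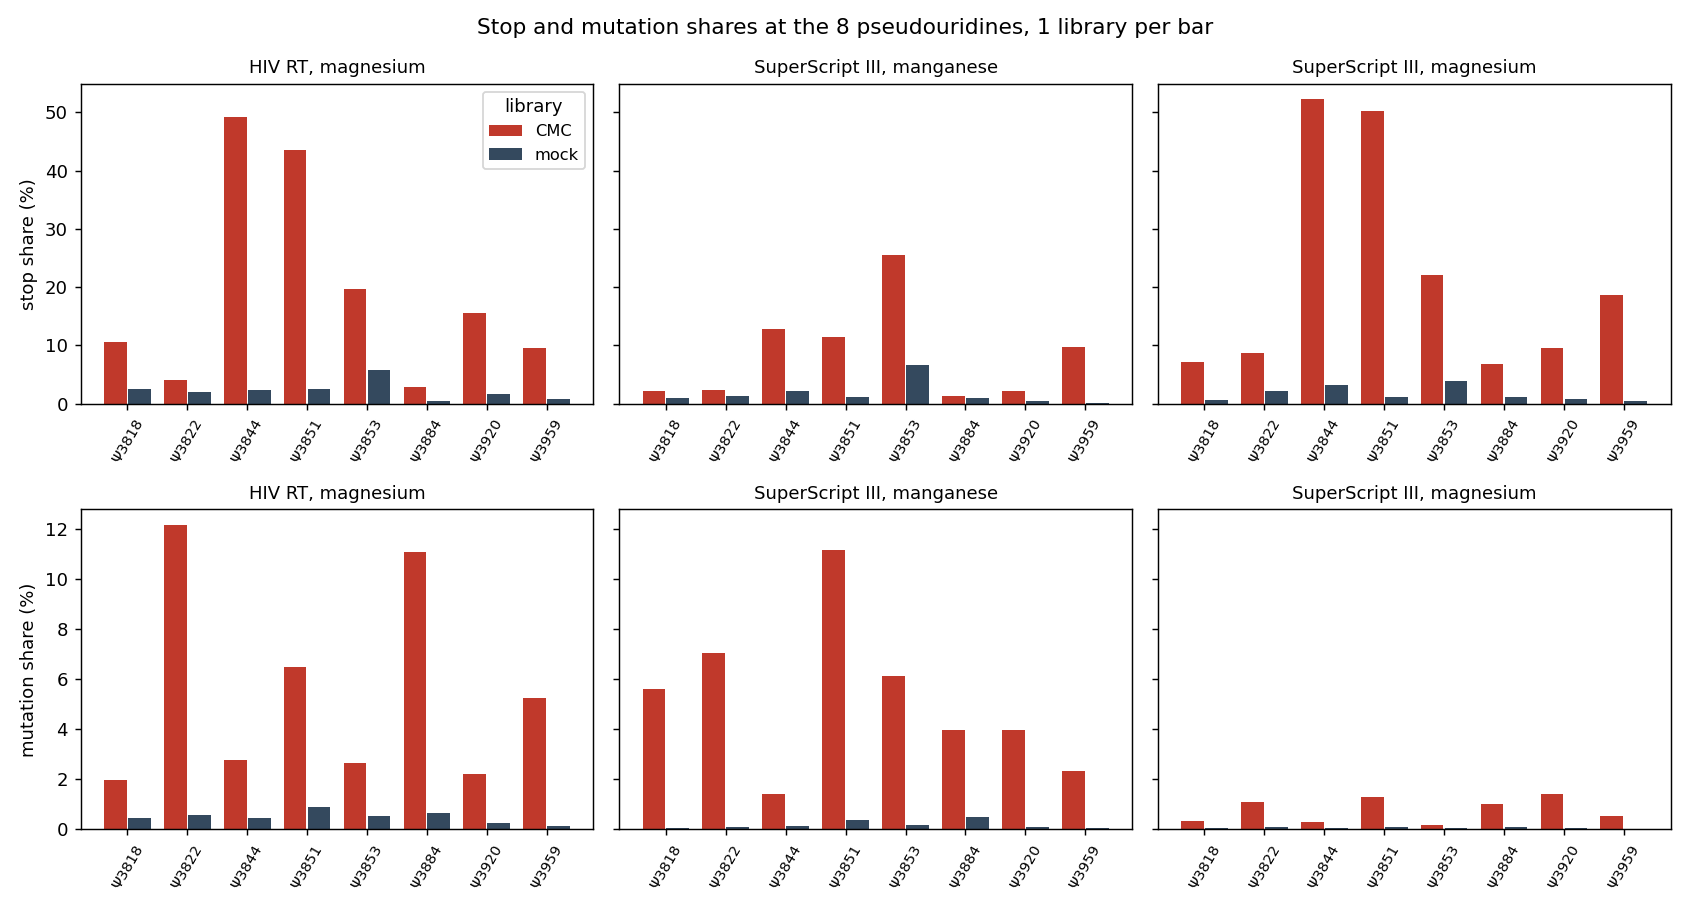
Stop share (upper row) and mutation share (lower row), in percent, at the 8 pseudouridines in the CMC library (red) and the mock library (dark) of each reverse transcription condition; each bar is 1 library. Stops stand highest at Ψ3844 and Ψ3851 with HIV RT and with SuperScript III and magnesium, and mutations stand highest at Ψ3822 and Ψ3884 with HIV RT and at Ψ3851 with SuperScript III and manganese.

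With HIV RT and SSIII-Mg the strongest stops of the window stood at Ψ3844 and Ψ3851, which both precede an A. At Ψ3844 the stop share was 49.2% with CMC and 2.42% in mock with HIV RT, 12.8% with CMC and 2.16% in mock with SSIII-Mn, and 52.3% with CMC and 3.14% in mock with SSIII-Mg. Its mutation share was 2.78% with CMC and 0.444% in mock with HIV RT, 1.42% and 0.139% with SSIII-Mn, and 0.283% and 0.0523% with SSIII-Mg. Ψ3844 was thus called for stops only, with stop changes of 46.8, 10.6 and 49.2 points. Its mutation changes of 2.34, 1.28 and 0.230 points were positive but missed the bar. Among the 102 listed pseudouridines on a U, its stop change ranked 3 with HIV RT, 41 with SSIII-Mn and 7 with SSIII-Mg.

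At Ψ3851, which has the same neighbours, the stop share was 43.5% with CMC and 2.47% in mock with HIV RT, 11.5% and 1.10% with SSIII-Mn, and 50.3% and 1.14% with SSIII-Mg. The mutation share there was 6.49% with CMC and 0.885% in mock with HIV RT, 11.2% and 0.382% with SSIII-Mn, and 1.31% and 0.113% with SSIII-Mg. Ψ3851 rose in both measures with HIV RT and with SSIII-Mn, and with SSIII-Mn its mutation change of 10.8 points and its stop change of 10.4 points were of like size. With SSIII-Mg the stop change was 49.1 points and the mutation change 1.20 points.

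Ψ3959, the last of the sites before an A, had a G on its 5′ side. Its stop share was 9.53% with CMC and 0.783% in mock with HIV RT, 9.78% and 0.184% with SSIII-Mn, and 18.7% and 0.416% with SSIII-Mg. The mutation share of this site was 5.24% with CMC and 0.149% in mock with HIV RT, 2.34% and 0.0600% with SSIII-Mn, and 0.526% and 0.0361% with SSIII-Mg. It rose in stop share in all 3 comparisons and in mutation share with HIV RT, where its change of 5.09 points lay just past the bar.

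On the site itself, the sites before a G changed more in mutation share than in stop share in 5 of the 6 cases with HIV RT or SSIII-Mn. With SSIII-Mn the same held at Ψ3851 and Ψ3920, which do not precede a G. Over the 5 nt centred on the site, the stop changes with HIV RT and SSIII-Mn were 11.7 and 9.56 points for Ψ3818. They were 3.28 and 9.12 points for Ψ3822, and 21.9 and 9.65 points for Ψ3884. Only for Ψ3822 with HIV RT did the mutation change on the site exceed them. At Ψ3822 the mutation share was 12.2% with CMC and 0.570% in mock with HIV RT, 7.06% and 0.0960% with SSIII-Mn, and 1.10% and 0.0985% with SSIII-Mg. The stop share at Ψ3822 was 4.10% with CMC and 2.07% in mock with HIV RT, 2.31% and 1.40% with SSIII-Mn, and 8.68% and 2.26% with SSIII-Mg. Its mutation change with HIV RT, 11.6 points, was the largest of the window in that condition, and its stop change there, 2.03 points, ranked 98 of 102 listed pseudouridines.

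Ψ3884 had a mutation share of 11.1% with CMC and 0.643% in mock with HIV RT, 3.98% and 0.498% with SSIII-Mn, and 1.01% and 0.0853% with SSIII-Mg. Its stop share was 2.80% with CMC and 0.374% in mock with HIV RT, 1.35% and 1.004% with SSIII-Mn, and 6.75% and 1.15% with SSIII-Mg. Stops were called at this site with SSIII-Mg, by a change of 5.60 points close to the bar, and missed the bar in the other comparisons.

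Ψ3818, listed as ribose-methylated too, went the other way with HIV RT. The stop share there was 10.6% with CMC and 2.51% in mock with HIV RT, 2.23% and 0.889% with SSIII-Mn, and 7.10% and 0.636% with SSIII-Mg. Its mutation share was 1.97% with CMC and 0.471% in mock with HIV RT, 5.62% and 0.0556% with SSIII-Mn, and 0.354% and 0.0439% with SSIII-Mg. Ψ3818 therefore rose in stop share with HIV RT and SSIII-Mg and in mutation share with SSIII-Mn. Ψ3818 and Ψ3822 lie 4 nt apart and share both flanking bases, an A on the 5′ side and a G on the 3′ side, yet with HIV RT their mutation changes were 1.50 points (95% interval 1.38 to 1.63) and 11.6 points (11.3 to 11.9).

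Ψ3853, before a C, had a stop share of 19.7% with CMC and 5.82% in mock with HIV RT, 25.5% and 6.56% with SSIII-Mn, and 22.1% and 3.93% with SSIII-Mg. The mutation share at Ψ3853 was 2.65% with CMC and 0.538% in mock with HIV RT, 6.14% and 0.176% with SSIII-Mn, and 0.165% and 0.0378% with SSIII-Mg. It had the highest mock stop share of the 8 sites in each condition, and it rose in stop share in all 3.

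Ψ3920, before a U, had a stop share of 15.6% with CMC and 1.58% in mock with HIV RT, 2.19% and 0.528% with SSIII-Mn, and 9.49% and 0.778% with SSIII-Mg. The mutation share of Ψ3920 was 2.19% with CMC and 0.255% in mock with HIV RT, 3.98% and 0.0824% with SSIII-Mn, and 1.43% and 0.0437% with SSIII-Mg. Its mutation change with SSIII-Mg, 1.39 points, was the largest of the window in that condition and ranked 20 of 102.

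The same pseudouridine gave different changes in each reverse transcription condition. Changes were set side by side for 3 pairs of conditions at 8 sites and for both measures, and all 48 differences had 95% intervals that left out 0, which covers counting error only. The mutation change was larger with HIV RT than with SSIII-Mg at 8 of 8 sites and larger with SSIII-Mn than with SSIII-Mg at 8 of 8. Between HIV RT and SSIII-Mn it was larger with HIV RT at 4 of 8 sites. The stop change was larger with HIV RT than with SSIII-Mn at 6 of 8 sites, larger with HIV RT than with SSIII-Mg at 2 of 8, and larger with SSIII-Mn than with SSIII-Mg at 1 of 8.

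The widest gaps between the ions of SuperScript III were in stops at the pair of sites between C and A. On the site itself, SSIII-Mn minus SSIII-Mg was −38.5 points at Ψ3844 (95% interval −39.0 to −38.0) and −38.7 points at Ψ3851 (−39.1 to −38.4). At Ψ3853 the same difference was 0.72 points (0.38 to 1.05), the only site where stops were higher with manganese. Summed over positions 3849 to 3853, which hold Ψ3851 and Ψ3853, the stop changes lay closer, at 46.4 points with SSIII-Mn and 56.3 points with SSIII-Mg. Over positions 3842 to 3846 around Ψ3844 they stayed apart, at 16.8 points with SSIII-Mn and 49.75 points with SSIII-Mg. In mutation SSIII-Mn minus SSIII-Mg reached 9.59 points at Ψ3851 (9.35 to 9.83). The deposited tables of HIV RT carry a different kind of name than those of SuperScript III, and a difference in processing cannot be told apart from the enzyme in comparisons between them.

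Stops did not always fall on the pseudouridine itself. Within 2 nt on each side, the largest stop change lay on the pseudouridine at 5 of 8 sites with HIV RT, 6 of 8 with SSIII-Mg and 2 of 8 with SSIII-Mn. With SSIII-Mn it lay 1 nt to the 5′ side of Ψ3818, Ψ3822 and Ψ3920, and 2 nt to the 5′ side of Ψ3884. A3852, which lies between Ψ3851 and Ψ3853, had the largest change for both of them and cannot be assigned to either. At Ψ3920 this neighbour, C3919, had a stop share of 6.40% with CMC and 0.745% in mock with HIV RT, 26.5% and 5.47% with SSIII-Mn, and 28.4% and 5.00% with SSIII-Mg. C3919 rose in all 3 comparisons, by 5.66, 21.1 and 23.4 points, and with both ions of SuperScript III its change exceeded that of Ψ3920.

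Around Ψ3884 the largest stop change with HIV RT and with SSIII-Mn lay 2 nt to the 5′ side, at C3882. The stop share of C3882 was 19.6% with CMC and 5.14% in mock with HIV RT, 13.4% and 5.84% with SSIII-Mn, and 7.18% and 4.76% with SSIII-Mg. It rose by 14.4 points with HIV RT and by 7.51 points with SSIII-Mn, while its change of 2.42 points with SSIII-Mg missed the bar. A3821, 1 nt to the 5′ side of Ψ3822, had changes of 5.41, 5.70 and 4.40 points in the 3 comparisons and rose in the first pair.

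**Figure D3:**
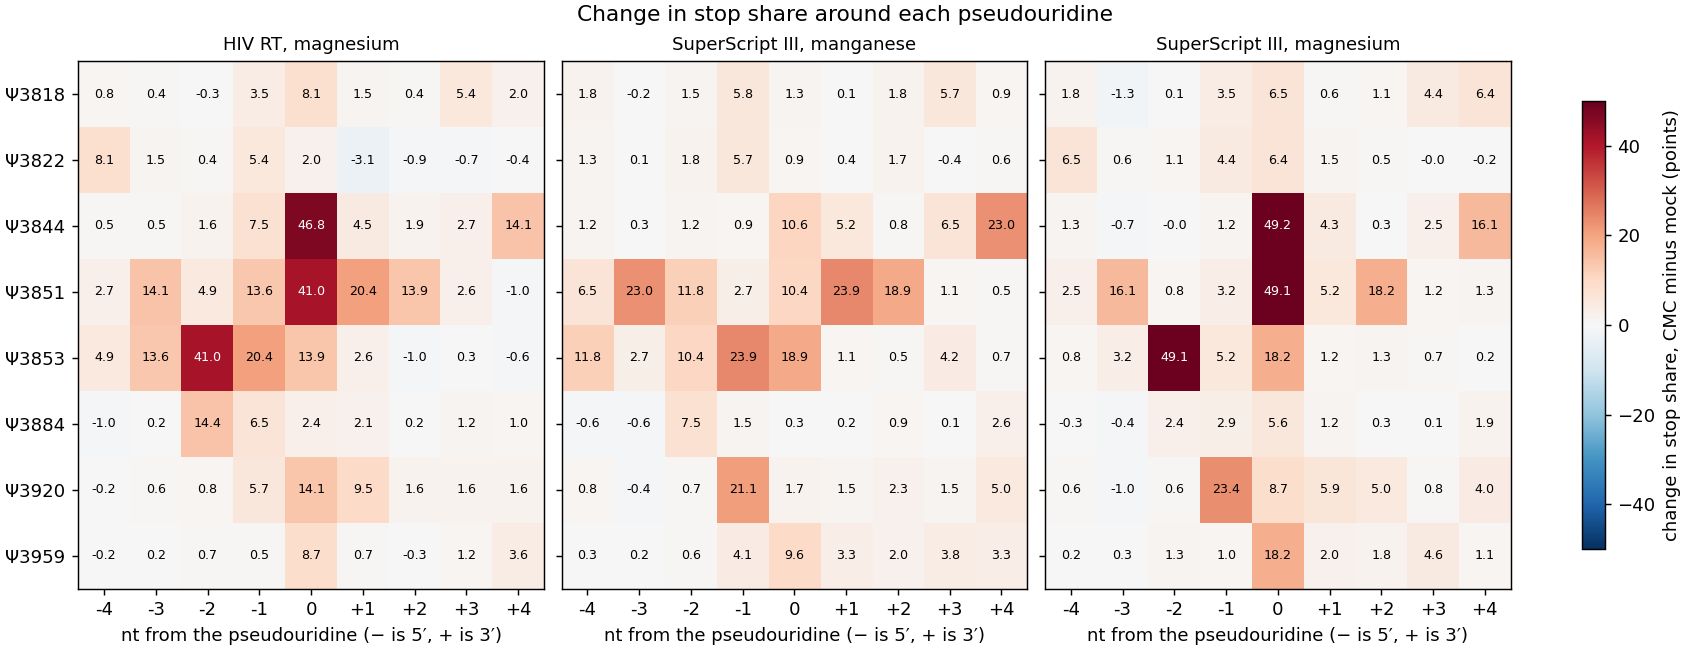
Change in stop share (CMC minus mock, percentage points) at each position from 4 nt on the 5′ side to 4 nt on the 3′ side of each pseudouridine, 1 panel per reverse transcription condition. Ψ3844 and Ψ3851 have their largest change on the site with HIV RT and with SuperScript III and magnesium. Ψ3851 with HIV RT also has 20.4 points 1 nt to its 3′ side, where crossing reads leave out reads that stopped at Ψ3851. With manganese larger values stand beside several sites, such as 21.1 points 1 nt to the 5′ side of Ψ3920.

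With stops summed over the 5 nt centred on the site, the CMC and mock shares of cDNAs that ended at Ψ3844 were 59.5% and 8.55% with HIV RT, 24.2% and 7.45% with SSIII-Mn, and 57.0% and 7.29% with SSIII-Mg. Around Ψ3884 they were 32.8% and 10.8% with HIV RT, 19.0% and 9.40% with SSIII-Mn, and 20.2% and 9.23% with SSIII-Mg. Around Ψ3920 they were 33.8% and 7.01% with HIV RT, 37.2% and 13.9% with SSIII-Mn, and 46.8% and 12.7% with SSIII-Mg. The CMC minus mock changes around Ψ3920 were 26.8 points with HIV RT, 23.3 points with SSIII-Mn and 34.1 points with SSIII-Mg.

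The stretch from 3842 to 3855 held Ψ3844, Ψ3851 and Ψ3853 and was drawn around these sites with their values known. Combined from the stop shares of its 14 positions, the share that ended within it came to 92.0% with CMC and 31.2% in mock with HIV RT. The corresponding shares were 80.9% and 27.5% with SSIII-Mn and 90.1% and 26.4% with SSIII-Mg. These shares are products over single positions and assume that each read met them in turn. Crossing reads numbered 178213 at C3866 and 21084 at Ψ3844 in the HIV RT CMC library, against 244416 and 233336 in its mock library.

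**Figure D4:**
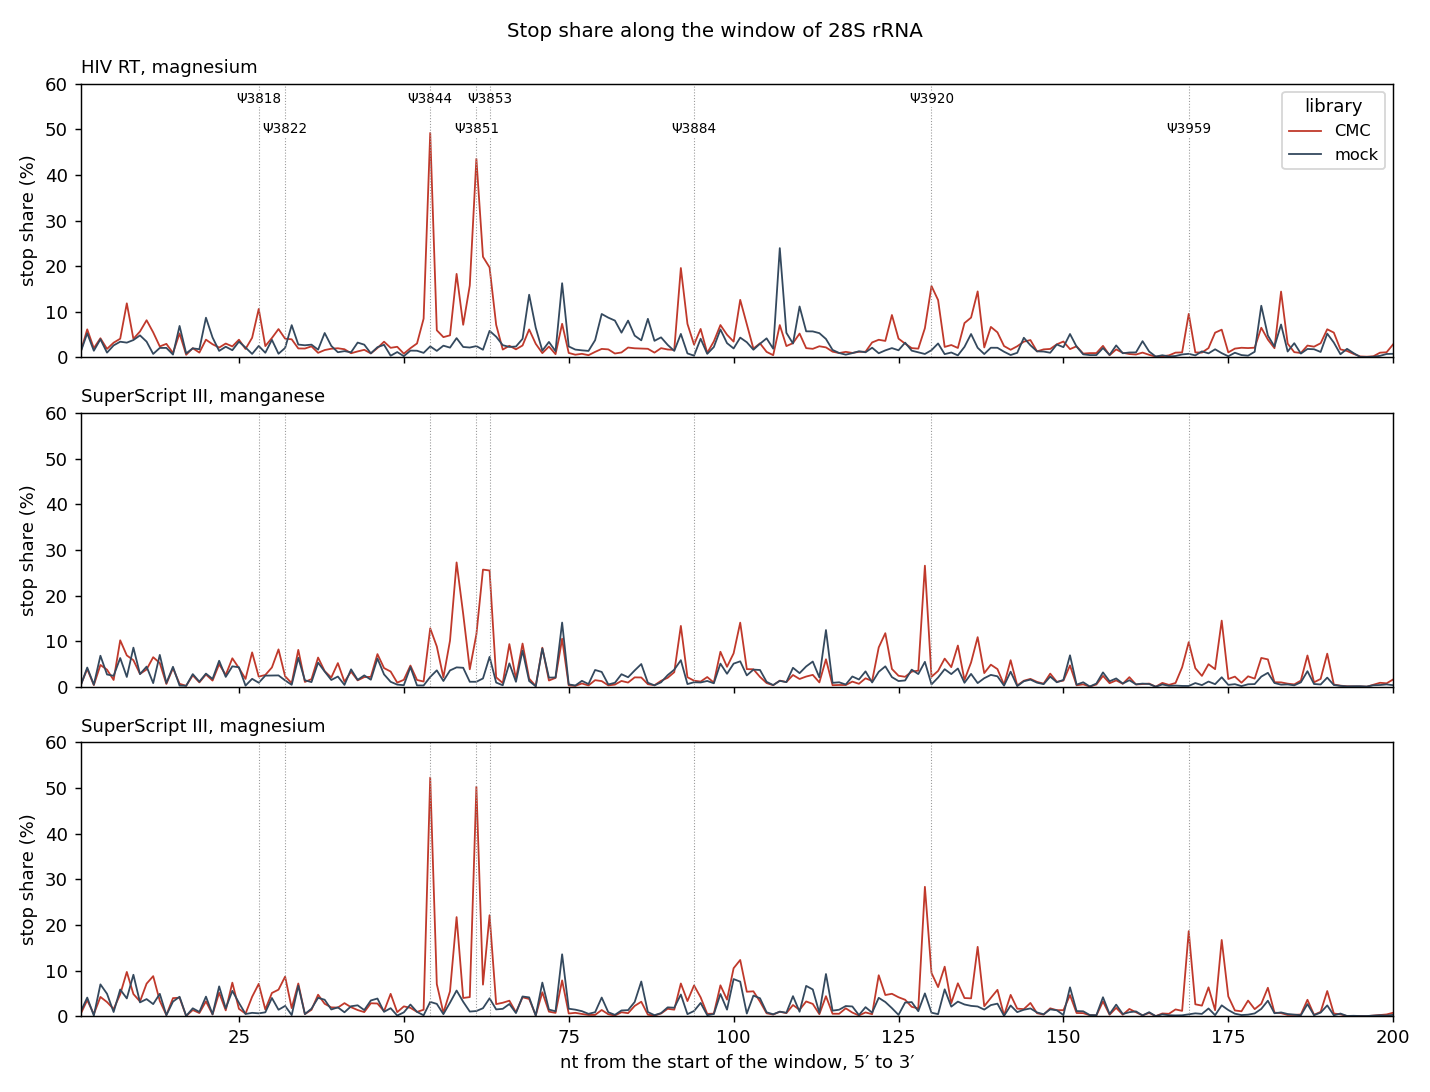
Stop share (stops over stops plus crossing reads, in percent) along the 200 nt of the window, counted from its 5′ end, in the CMC library (red) and the mock library (dark) of each reverse transcription condition. Dotted lines mark the 8 pseudouridines. The CMC peaks at Ψ3844 and Ψ3851 reach 49.2% and 43.5% with HIV RT and 52.3% and 50.3% with SuperScript III and magnesium, against 12.8% and 11.5% with manganese.

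Between Ψ3844 and Ψ3851 lies U3848, which is not on the list and has the same flanking bases, a C and an A. The stop share of U3848 was 18.3% with CMC and 4.22% in mock with HIV RT, 27.3% and 4.26% with SSIII-Mn, and 21.7% and 5.63% with SSIII-Mg. U3848 rose in all 3 comparisons, by 14.1, 23.0 and 16.1 points, and no mutation call was made there. Ψ3844 minus U3848 in stop change was 32.7 points with HIV RT (95% interval 32.1 to 33.3) and 33.1 points with SSIII-Mg (32.5 to 33.6), but −12.4 points with SSIII-Mn (−12.8 to −11.9). Ψ3851 minus U3848 gave 27.0 points with HIV RT (26.5 to 27.5), 33.0 points with SSIII-Mg (32.6 to 33.5) and −12.6 points with SSIII-Mn (−13.0 to −12.2). In stops the listed pseudouridines thus stood above the unlisted U between them with magnesium and below it with manganese. The bases next to the 3 sites are alike, but their distances to other pseudouridines are not, and the part of those distances was not tested.

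The stop change of U3848 is read here against other U between C and A in both rRNAs. With HIV RT the other 43 such unlisted U had a median stop change of 12.0 points, and 15 of them exceeded U3848. With SSIII-Mn their median was 10.3 points and 4 of 43 exceeded it, and with SSIII-Mg the median of 42 was 12.9 points and 16 exceeded it. The other 5 listed pseudouridines between C and A had median stop changes of 25.0 points with HIV RT, 33.1 points with SSIII-Mn and 36.6 points with SSIII-Mg. Ψ3844 and Ψ3851 were above the highest of those 5 with HIV RT and SSIII-Mg, which had 32.7 and 44.6 points, and within it with SSIII-Mn, where it ran from 3.11 to 41.7 points. U3848 was described in this way after its values were seen.

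**Figure D5:**
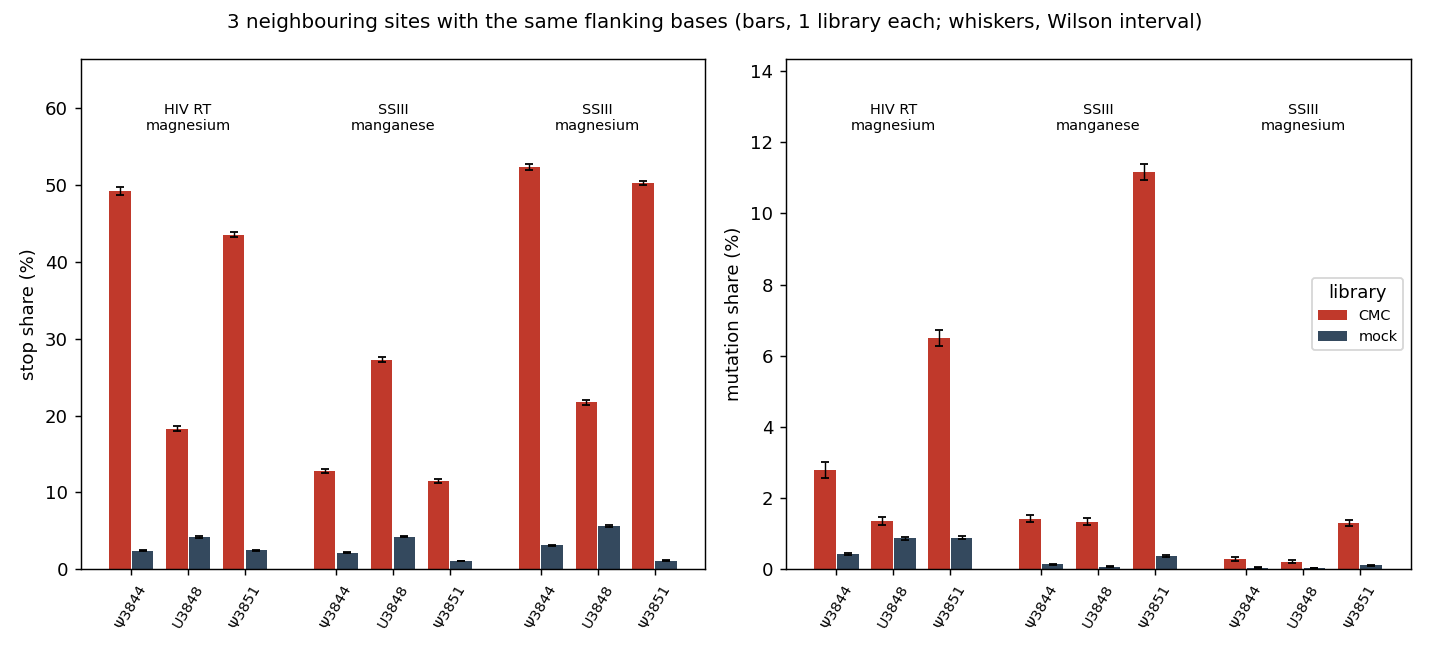
Stop share (left) and mutation share (right), in percent, at Ψ3844, the unlisted U3848 and Ψ3851, which share their flanking bases, in the CMC library (red) and the mock library (dark) of each reverse transcription condition (SSIII is SuperScript III); whiskers are 95% Wilson intervals for counting error. U3848 has the lowest CMC stop share of the 3 sites with HIV RT and with magnesium, and the highest, 27.3%, with manganese.

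Beyond U3848 and C3919, 3 further unlisted positions rose in stop share in all 3 comparisons. A3852, between Ψ3851 and Ψ3853, had a stop share of 22.0% with CMC and 1.67% in mock with HIV RT, 25.7% and 1.83% with SSIII-Mn, and 6.93% and 1.76% with SSIII-Mg. Crossing reads at A3852 leave out reads that stopped at Ψ3851, so these shares are too high. In the SSIII-Mg CMC library they numbered 73241 at A3852 and 143759 at Ψ3853, beside 71080 stops at Ψ3851. The rise of A3852 with SSIII-Mg, 5.17 points, lay close to the bar. Whether it would pass with those reads counted was not tested. U3927, which stands before an A, had 14.5% with CMC and 2.10% in mock with HIV RT, 10.9% and 0.816% with SSIII-Mn, and 15.2% and 2.14% with SSIII-Mg. U3964, likewise before an A, had 6.07% with CMC and 0.930% in mock with HIV RT, 14.5% and 2.09% with SSIII-Mn, and 16.7% and 2.39% with SSIII-Mg. All 5 positions thus lay on a U before an A or next to a listed pseudouridine.

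Of the 5 unlisted U of the window that stand before an A, 4 rose in stop share with HIV RT, 4 with SSIII-Mn and 5 with SSIII-Mg. Of the 11 before a G, 1 rose in each comparison, of the 7 before a C, 1, 0 and 0 rose, and of the 4 before a U, 2, 0 and 0 rose. The pseudouridines before an A rose in 3 of 3 cases in each comparison, and those before a G in 1, 0 and 3 of 3. The median stop change of the unlisted U before an A was 8.61 points with HIV RT, 10.1 points with SSIII-Mn and 13.1 points with SSIII-Mg. Before a G it was 1.24, 1.46 and 2.32 points, and before a U 5.58, 1.09 and 3.00 points.

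Mutation ran the other way with HIV RT. There the unlisted U before a G had a median mutation change of 1.86 points (range 0.801 to 4.85), against 0.406 points before an A (range 0.110 to 0.908), and the ranges overlapped between 0.801 and 0.908 points. The 7 largest mutation changes of the window with HIV RT were all at U, namely the 4 called pseudouridines followed by the unlisted U3950, U3805 and U3957. The mutation share of U3950 was 5.26% with CMC and 0.411% in mock, that of U3805 5.19% and 0.647%, and that of U3957 3.63% and 0.229%. All 3 stand before a G, missed the bar of 5 points, and were chosen after their values were seen. With SSIII-Mn the same 3 had CMC shares of 0.761%, 1.10% and 1.11%.

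Stop calls were also counted by distance to the pseudouridines. Of the 60 unlisted positions within 5 nt of a listed pseudouridine, 11 rose with HIV RT (18.3%), 11 with SSIII-Mn (18.3%) and 5 with SSIII-Mg (8.33%). Over all positions tested the shares were 10.1%, 8.38% and 9.22%, so the near positions lay above the background with HIV RT and SSIII-Mn and near it with SSIII-Mg. The near positions include A3852, just 3′ of a strong stop, where the stop share is too high. Of the 132 farther away, 5, 6 and 3 rose. C3850 rose by 13.6 points with HIV RT and A3849 by 11.8 points with SSIII-Mn, and both missed the bar in the other comparisons. These positions and A3821 were chosen after their values were seen. Small increases in misreading were common near the sites with both ions of SuperScript III, although none was called. With SSIII-Mn, 58 of the 60 near positions and 107 of the 132 farther ones had a higher mutation share with CMC. These counts were 55 and 101 with SSIII-Mg, and 43 and 74 with HIV RT. Over all positions tested, 5385 of 6924 were higher with SSIII-Mn, 5606 of 6912 with SSIII-Mg and 3912 of 6935 with HIV RT.

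The bases read in place of U also differed between conditions. Over the 8 pseudouridines together, C made up 78.4% of mismatched reads with CMC and 40.4% in mock with HIV RT, 64.4% and 49.5% with SSIII-Mn, and 69.2% and 48.5% with SSIII-Mg. At Ψ3822, C made up 90.7% of mismatches in the CMC library of HIV RT (95% Wilson interval 89.9 to 91.4) and 68.8% in that of SSIII-Mn (67.3 to 70.2). In the CMC library of SSIII-Mg the leading base at Ψ3822 was G, with 54.8% (50.4 to 59.2) of 485 mismatched reads.

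Ψ3853 in the CMC library of SSIII-Mn was read as C in 94.4% of mismatches (93.8 to 94.98), and in its mock library in 82.7% (79.0 to 85.9). Ψ3920 was read as G in 67.8% of mismatches (66.0 to 69.5) in the CMC library of SSIII-Mn, whereas C led there with 55.5% in the CMC library of HIV RT and 67.0% in that of SSIII-Mg. At Ψ3844 the leading base in the CMC library of HIV RT was A, with 49.5% (45.5 to 53.5). C led in the CMC libraries at 7 of 8 sites with HIV RT, 7 of 8 with SSIII-Mn and 6 of 8 with SSIII-Mg. With SSIII-Mn, C and A were nearly equal at Ψ3818, with 37.3% and 37.2% of mismatches. The SSIII-Mg count rests on few reads, from 81 mismatched reads at Ψ3844 to 1033 at Ψ3884.

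Falls in stop share were called at 9 positions with HIV RT and at 1 position with each ion of SuperScript III. The 9 positions that fell with HIV RT lay between 3859 and 3900, and 4.5% of the window is close to the 3.66% that fell over all positions. G3897 had a stop share of 7.08% with CMC and 23.9% in mock with HIV RT, the largest fall of the window. At C3864 it was 7.36% with CMC and 16.3% in mock with HIV RT, 10.5% and 14.1% with SSIII-Mn, and 7.85% and 13.6% with SSIII-Mg. C3864 fell with HIV RT and SSIII-Mg. It had the highest mock stop share of the window with both ions of SuperScript III and the next highest with HIV RT after G3897.

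From 3859 to 3900, the median stop share over 41 positions other than Ψ3884 was 1.99% with CMC and 3.73% in mock with HIV RT, 1.46% and 2.04% with SSIII-Mn, and 1.01% and 1.34% with SSIII-Mg. Over the other 151 positions the medians were 2.15% with CMC and 1.57% in mock with HIV RT, 2.12% and 1.43% with SSIII-Mn, and 1.78% and 1.42% with SSIII-Mg. The stretch was chosen by where the falls lay, so these medians are a description only. C3870 fell by 7.66 points and G3859 by 7.61 points with HIV RT, and G3904 fell by 6.41 points with SSIII-Mn, the only fall in that comparison.

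No pseudouridine was among the 3 highest mutation shares of any mock library. With HIV RT the highest mock mutation shares were 3.62% at C3866, 2.93% at C3855, which lies 2 nt from Ψ3853, and 2.40% at A3861. With SSIII-Mn they were 4.03% at A3906, 3.75% at C3926 and 3.55% at A3860, and with SSIII-Mg 1.72% at A3836, 1.13% at G3934 and 1.04% at A3807. The mock shares of the 8 pseudouridines, with a median of 0.505% with HIV RT, 0.118% with SSIII-Mn and 0.0481% with SSIII-Mg, were close to those of the unlisted U of the window, at 0.516%, 0.132% and 0.0510%. After G3897 and C3864, G3859 had the third highest mock stop share with HIV RT, 13.7%. With SSIII-Mn and SSIII-Mg, G3904 and A3799 followed C3864.

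The 11 ribose-methylated positions other than Ψ3818 showed no mutation call. Ribose methylation, placed by box C/D snoRNAs, leaves base pairing intact and can slow reverse transcription. Their mutation shares with CMC ran from 0.0978% to 0.886% with HIV RT, from 0.113% to 0.864% with SSIII-Mn and from 0.0538% to 0.349% with SSIII-Mg. Their median mock stop share was 2.27% with HIV RT, 2.25% with SSIII-Mn and 1.74% with SSIII-Mg, beside 1.96%, 1.45% and 1.36% over the other 181 positions that are not pseudouridine. Among these 11 positions U3925 was the only one that rose in stop share, by 5.22 points with HIV RT.

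At the borders of the window nothing was called. C3791, the first position inside, had stop changes of 0.026, 0.122 and −0.491 points with HIV RT, SSIII-Mn and SSIII-Mg, and U3790, just outside, had 0.727, −0.288 and 0.321 points. C3990, the last position inside, had 2.09, 1.28 and 0.468 points, and G3991, just outside, had 2.92, 3.90 and 2.47 points.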

How the data were processed

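Total RNA over 200 nt of HEK293T/17 cells was fragmented, CMC- or mock-treated, ligated, copied in 1 of 3 reverse transcription conditions, circularised and amplified, per the labels' protocols. The submitters' processing notes name Trimmomatic 0.32 and Bowtie 1.0, with no settings. For the counting program and the reference sequences, the origin is not given in the sources used here. Per the file headers, the authors deposited, for each position of 18S and 28S rRNA, the count of crossing reads in all and with each base, and the number of reads that stopped there. Beside these, the authors deposited the mismatch and stop values as a fraction of reads, and a score that joins both, which was not used. Both fractions were recomputed from the counts and differed by less than 1e-09 in all 12 tables. In 12 of 12 tables the stop count at position 1 equals the gain in crossing reads between positions 2 and 3. Crossing reads at a position thus leave out reads that stopped 1 nt to its 5′ side, and the stop shares were not corrected for this. Stops are used at the positions the authors gave them. They would lie on the first uncopied base if crossing counts omit the terminal base of a read, which was not tested.

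Shares were computed in Python 3.11.15 with pandas 2.3.3. Positions were tested where both libraries of a condition had 100 crossing reads or more (6912 to 6935 of 6939), with two-sided Fisher's exact tests (SciPy 1.17.1) and Benjamini-Hochberg adjustment over all of them (statsmodels 0.14.6). Calls were tested on simulated data. The simulated counts held no spread between libraries, so they cannot show how often such spread would give calls. The depths above give 95% Wilson intervals, and differences between conditions have normal intervals. Such tests compare 2 libraries, not 2 treatments. The modified positions were written from general knowledge, and 4 listed pseudouridines not on a U were left out. The window, the lists and the rule for naming sites were chosen with earlier results of these data known. Named sites are the 8 pseudouridines, the 3 unlisted positions per condition and measure with the largest called rise and fall, up to 5 called alike in all conditions, and the 3 highest of each mock library. Other size bars, read minimums, baselines, base choices, stop offsets and summaries were tried as alternatives.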

Additional observations from a re-analysis of the deposited data

How the results depend on the processing

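Values are given in the order HIV RT, SSIII-Mn, SSIII-Mg unless a condition is named. No median CMC minus mock change over the 8 sites turned its sign. A single site did, since with stops taken 1 nt to the 3′ side the HIV RT change for Ψ3822 went from 2.03 to −3.10 points. With a bar of 2 points, 11 and 17 positions of the window rose in mutation share with HIV RT and SSIII-Mn, and 42, 41 and 42 rose in stop share. Of the positions that rose in mutation share, 6 and 7 were pseudouridines. With a bar of 10 points, 2 and 1 positions rose in mutation share with HIV RT and SSIII-Mn, in each case all pseudouridines, 9, 9 and 8 rose in stop share, and 4 pseudouridines rose in stop share with SSIII-Mg. With the 99th percentile of the same base as the bar, 3, 3 and 2 positions rose in mutation share, of which 2, 1 and 0 were pseudouridines, so that unlisted positions were called in each condition. With that bar 5, 2 and 3 positions rose in stop share, of which 2, 0 and 2 were pseudouridines. Counting only C as a misreading left 2 called pseudouridines with HIV RT and 2 with SSIII-Mn and medians of 2.29, 2.15 and 0.229 points. The mean over the 8 sites was 5.08 and 5.03 points for mutation with HIV RT and SSIII-Mn and, for stops, 17.1, 6.73 and 20.2 points. Pooled reads gave mutation changes of 5.43 and 5.37 points with HIV RT and SSIII-Mn, while their stop changes were 17.1, 7.54 and 23.0 points. The CMC library alone gave 4.01% for mutation with HIV RT and 13.1%, 6.05% and 14.1% for stops. Over the 4 sites with no other pseudouridine within 5 nt, the median mutation change was 2.88 points with SSIII-Mn. After subtraction of the change within 10 nt, it was 4.35 points with SSIII-Mn, the median stop changes were 10.1, 4.80 and 12.2 points, and Ψ3959 lost its mutation call with HIV RT at 4.60 points. Stops taken 1 nt to the 5′ side had medians of 6.07, 4.89 and 3.35 points and 2 pseudouridines called with SSIII-Mg. Stops taken 1 nt to the 3′ side had medians of 2.37, 1.30 and 1.76 points and 2, 2 and 2 called. Stops over 5 nt, an alternative chosen after seeing the data, had medians of 24.4, 17.4 and 28.4 points. The order of conditions also depended on the setting. For mutation, SSIII-Mn lay above HIV RT in the reported medians but below it over the isolated sites (2.88 against 3.71 points), with only C counted, in the mean and in pooled reads. For stops, SSIII-Mg lay above HIV RT in the reported medians but below it with stops taken 1 nt to either side, and below SSIII-Mn with stops taken 1 nt to the 5′ side. The cause of these shifts was not tested.

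No paired analysis was possible because each group holds 1 library, and for the same reason no alternative leaves out a replicate. Depth limits little at these sites, with at least 21084 crossing reads at each pseudouridine, except for the base makeup of mismatches with SSIII-Mg. The spread between preparations is not known, so the 5-point bar, not an error between replicates, decides what is called. CMC treatment and library preparation cannot be told apart within a condition, nor can enzyme and file processing between HIV RT and SuperScript III.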
